A study of Homo sapiens with 16 samples.

Results

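The transcripts carried by ribosomes were compared here with the transcripts of the cytosol in HBE, a human bronchial epithelial cell line. The comparison joins 3 of the 16 libraries of the study: 1 library of ribosome-nascent chain complexes (RNC), the ribosomes pelleted together with the messages they are reading, and 2 libraries of cytosolic RNA. All 3 were chosen by their labels and by line-typical genes: the RNC library is labelled as H1299 cells transfected with pCMV-N-Flag-FLII, yet it carries HBE transcripts, and the cytosol libraries are labelled as HBE NC and as HBE with a lentiviral shRNA against FLII. FLII is flightless I, an actin-binding protein of the gelsolin family. The study as a whole compared FLII overexpression in H1299, a line of non-small cell lung carcinoma, against empty pCMV-N-Flag, and FLII knockdown in HBE against NC, in 4 kinds of polyA RNA (mRNA, RNC, cytosol and nuclear) with 1 library for each. H1299 was transfected by lipofection and the HBE knockdown was stable, and the labels do not say from how many clones. RNC were prepared after 15 min of cycloheximide, which stops elongating ribosomes on their message, by lysis in 1% Triton X-100 and 5 h of ultracentrifugation through 30% sucrose.

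A message is translated in proportion to its abundance and to how well it recruits and keeps ribosomes, so the ratio of its share among ribosome-bound RNA to its share in the cytosol is a measure of ribosome association. Messages for ribosomal proteins and elongation factors begin with a terminal oligopyrimidine tract (TOP), a C at the cap followed by a run of C or T, through which growth signals set their loading. Messages for secreted and membrane proteins are translated at the endoplasmic reticulum (ER), where a hydrophobic signal peptide emerging from the ribosome takes the whole complex to the membrane. A pellet of this kind counts a message with 1 ribosome like one with many, and it can hold other heavy particles besides ribosomes.

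The RNC library was picked for its KRT5, KRT17 and GAGE1 levels, which are therefore given as a description. KRT5, a basal epithelial keratin, stood at 247 CPM (reads of a gene per 1000000 reads assigned to genes) and KRT17 at 3997 CPM, against 949.7 and 949 CPM for KRT5 and 5962 and 6321 CPM for KRT17 in the HBE NC and knockdown cytosol. GAGE1, a cancer-testis antigen that the 7 other libraries labelled H1299 hold at 986 to 4081 CPM, was at 0.312 CPM. The other 6 HBE markers summed to 408 CPM, with none at 0, against 511 and 507 CPM in the HBE cytosol and 1.19 to 14.7 CPM in the 7 other libraries labelled H1299. TRIM29, an epithelial TRIM protein, made up 376 CPM of that sum, with 317 and 335 CPM in the HBE cytosol. The other 5 H1299 markers summed to 57.7 CPM, with GAGE12I and CTAG1B at 0 and the cancer-testis antigen CTAG2 at 0.0519 CPM, against 670 to 6413 CPM in the 7 other libraries labelled H1299 and 4.40 and 8.66 CPM in the HBE cytosol. Of those 57.7 CPM, 55.3 were reads of VIM, the intermediate filament of mesenchymal cells, which stood at 3.04 and 6.23 CPM in the HBE cytosol libraries and at 435 CPM in the RNC library labelled HBE NC. The FLII level, 24.4 CPM, was below the 389 CPM of H1299 RNC with the empty vector, against the label. It was 273 CPM in NC cytosol and 35.8 CPM in knockdown cytosol, so the log2 ratio of the RNC library was -3.48 to the first and -0.55 to the second. The latter lies at the median of all genes. In bulk RNA the share of cells of a kind and the RNA per cell cannot be told apart. The label of another RNC library is in doubt as well. The RNC library labelled HBE FLII knockdown, not compared here, had GAGE1 at 2220, CTAG2 at 478, KRT5 at 0.0374 and KRT17 at 1.80 CPM. Its 6 other HBE markers summed to 16.5 CPM and its 5 other H1299 markers to 805 CPM. Whether the 2 libraries were exchanged was not tested. The labels alone do not say which HBE culture the library compared here came from. It is called the RNC library throughout and is set against both cytosol libraries.

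**Figure D1:**
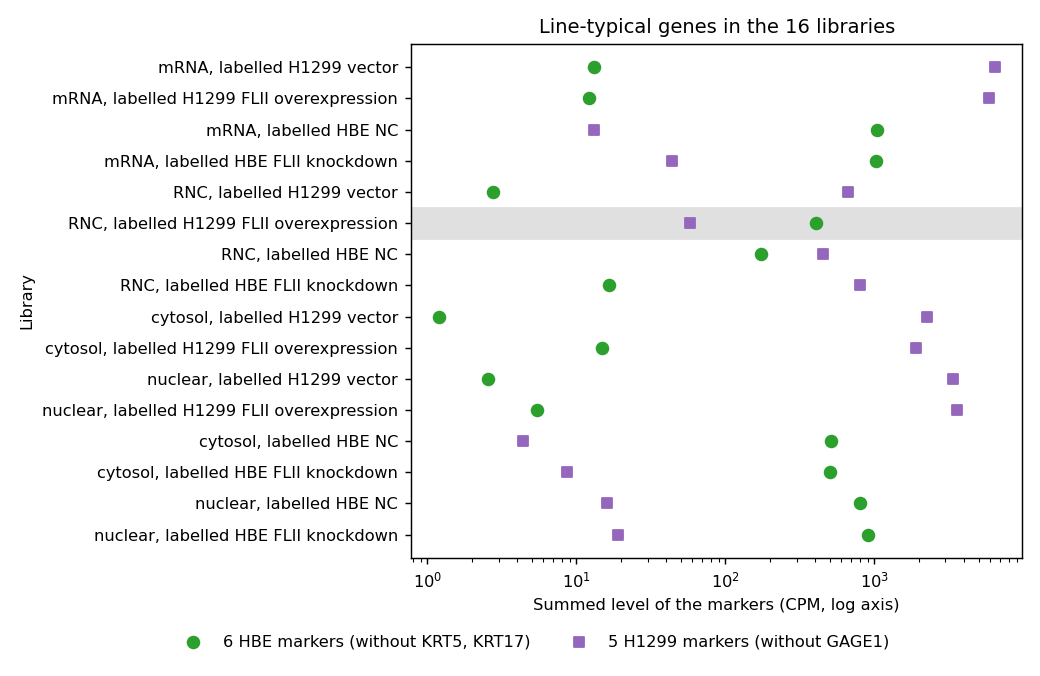
Summed level of 6 HBE markers (circles) and of 5 H1299 markers (squares) in each of the 16 libraries, in CPM on a log axis, without KRT5, KRT17 and GAGE1, by which the RNC library was chosen. The RNC library labelled H1299 FLII overexpression, in the shaded row, has 408 CPM of HBE markers and 57.7 CPM of H1299 markers, most of them VIM.

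Reads assigned to genes numbered 38514467 in the RNC library, 5914489 in NC cytosol and 6585225 in knockdown cytosol. Of 23709 genes in the files, 9915 had at least 2 CPM in both cytosol libraries and were compared. They held 99.5% of the RNC reads. TYW5 and PEX7 lay just outside this limit at 1.97 CPM in knockdown cytosol, and MCCC1 and RAB3B just inside it at 2.03 CPM in NC cytosol. With 1 library per group there is no replicate check of any difference below. The 95% intervals are exact binomial intervals for the ratio of read counts and cover counting error only, and no test across genes was made. A gene is called higher or lower where the RNC library differed from each cytosol library by 2-fold or more with both intervals excluding no difference. All ratios are log2 ratios of CPM with 0.5 reads added to each count. The first value is always against NC cytosol and the second against knockdown cytosol.

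Most genes took a smaller share of the ribosome-bound reads than of the cytosolic reads. The median log2 ratio over the 9915 genes was -0.53 against NC cytosol and -0.55 against knockdown cytosol, with quartiles of the mean ratio at -0.98 and -0.05. By the rule above 233 genes (2.35%) were higher and 1958 (19.7%) lower in the RNC library, and 7724 were neither. These 2 shares are the background against which every count of group members below is to be read. CPM adds up to the same total in each library, so the balance of the 2 directions depends on the scaling: scaled by trimmed mean of M values, which moves the median of all genes by 0.63 to 0.09, the same data gave 922 higher and 461 lower genes. For this reason gene groups are described below by their median minus the median of all genes, the relative median, which rescaling a library leaves unchanged. The cytosol libraries themselves were close: the knockdown library differed from NC by a median of 0.15 in absolute log2 ratio, and 50 genes (0.504%) lay 2-fold or more apart. With each comparison's median subtracted, the RNC library lay, for those 50 genes, nearer to the knockdown cytosol in 31 and nearer to NC in 19.

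**Figure D2:**
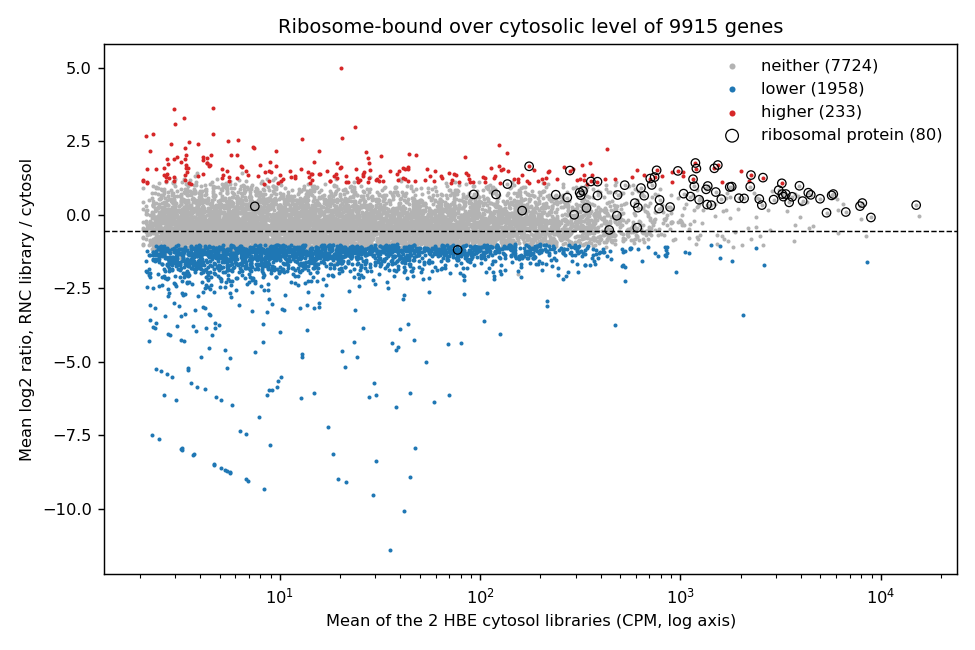
Mean log2 ratio of the RNC library to the 2 cytosol libraries for each of the 9915 genes against its mean cytosol level in CPM on a log axis, with the 233 higher genes in red, the 1958 lower genes in blue and a dashed line at the median of all genes, -0.54. Ribosomal protein genes, ringed in black, lie above that line but for 1, and the 18 genes with no read in the RNC library are drawn with the 0.5 reads added.

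The cytosolic ribosomal proteins, the protein building blocks of both ribosomal subunits, had the highest relative median of the groups described. Their relative median was 1.21 on the log2 scale, 79 of 80 lay above the median of all genes, 16 (20%) were called higher against 2.35% of all genes, and 1 was lower. Together they took 25.9% of the ribosome-bound reads, 17.1% of NC cytosol and 16.2% of knockdown cytosol. RPL13A of the large subunit had 4952 CPM in the RNC library and 1534 and 1539.5 CPM in the NC and knockdown cytosol, log2 ratios of 1.69 (95% interval 1.66 to 1.72) and 1.69 (1.66 to 1.71). RPS18 of the small subunit had 4015 CPM in the RNC library and 1229 and 1148 CPM in the NC and knockdown cytosol, ratios of 1.71 (95% interval 1.67 to 1.74) and 1.81 (1.77 to 1.84). RPL37 (4397 against 1559 and 1392 CPM, ratios 1.50 and 1.66) and RPS7 (549 against 180.4 and 171 CPM, ratios 1.61 and 1.68) were also among the higher ones. In all 4 the RNC level stood well outside the narrow range of the cytosol pair. The most abundant members differed less: RPS2 had 18823 CPM in the RNC library and 15210.0 and 14856 CPM in the NC and knockdown cytosol (ratios 0.31 and 0.34), RPL8 had ratios of 0.32 and 0.46, and RPLP0, a protein of the ribosomal stalk, lay at -0.12 and -0.08. At the low end RPL14 (-0.45 and -0.43) and RPL6 (-0.56 and -0.48) lay near the median of all genes, and RPL36AL, a paralog of RPL36A, was the 1 lower member (33.5 against 83.4 and 71.1 CPM, ratios -1.32 and -1.09). Ribosomal protein genes have many processed pseudogenes and some close paralogs, and how reads were divided among these is not given in the sources used here.

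The first transcribed bases of these genes are shown because the tract at the cap defines the TOP class. Each sequence holds 5 bases upstream of the annotated start and 15 bases from it, 5′ to 3′ on the coding strand, from RefSeq on GRCh38.p14, and capitals mark a run of C and T that begins with C at the start itself. The first 4 had ratios well above the median, and the last 3 did not. RPS7 has a run of 3 bases by the same reading. It is 1 of 4 higher ribosomal protein genes whose start sequence has no run of 5 or more bases, and these are not printed.
RPS18, chr6:33272070-33272089, plus strand: ccgctCTCTCTTCCacagga
RPL13A, chr19:49487603-49487622, plus strand: tcctcCTTTTCCaagcggct
EIF3F, chr11:7987332-7987351, plus strand: gcctcCTTCTTTCTCgacaa
COX7C, chr5:86617936-86617955, plus strand: tctttCTTTTCagtccttgc
RPL14, chr3:40457334-40457353, plus strand: tcttcCTTCTCgcctaacgc
NPM1, chr5:171387844-171387863, plus strand: gcgtcCTTTCCCTggtgtga
CCNI, chr4:77075975-77075994, minus strand: ttcccCTCCCTCCCCagcct

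A run of C followed by at least 4 more C or T, read from the annotated start on the coding strand, began 42 of the 63 ribosomal protein genes with a promoter entry (66.7%), 5.87% of the 7876 compared genes with one and 4.07% of all 35116 entries. Genes with such a run had a median log2 ratio of -0.27 (462 genes) and those without -0.57 (7414 genes). With the ribosomal protein genes left out the medians were -0.34 (420 genes) and -0.57 (7393 genes). Within the ribosomal proteins the members with a run had a median of 0.71 (42) and the 21 without one 0.56. A single annotated start per gene was read, and a gene whose main start lies a few bases away counts as having no run.

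Elongation factors and other textbook TOP messages had a relative median of 0.89, with 2 of 21 higher (9.52% against 2.35% of all genes) and 2 lower (9.52% against 19.7%). EIF3F, a subunit of the initiation complex eIF3, was higher at 926 against 367 and 359 CPM (ratios 1.34 and 1.37), as was COX7C, a small subunit of cytochrome c oxidase, at 602 against 214 and 223 CPM (ratios 1.49 and 1.43). EEF2, which moves the ribosome along by 1 codon, had ratios of 0.50 and 0.57, and EEF1A1, which delivers aminoacyl-tRNA, 0.29 and 0.40. The 2 lower members were PABPC1, the poly(A)-binding protein, with 117 CPM in the RNC library and 276 and 246 CPM in the NC and knockdown cytosol, and CCNI, an atypical cyclin, with 27.8 against 81.5 and 71.1 CPM. NPM1, a nucleolar chaperone, lay at -0.79 and -0.69. So members of this class that share a start run, as the printed sequences show, lay on both sides of the median of all genes. The other initiation and release factors sat at the middle of all genes (relative median -0.08, 0 of 39 higher and 7 lower, 17.9% against 19.7% of all genes). EIF4G1, the scaffold of the cap-binding complex, was lower at 117 against 366 and 381 CPM (ratios -1.65 and -1.71), and the cap-binding protein EIF4E lower at 8.57 against 21.8 and 22.2 CPM.

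Messages for the respiratory chain stood almost as high as those for the ribosome. The nuclear-encoded subunits of oxidative phosphorylation had a relative median of 1.12, with 25 of 80 higher (31.2% against 2.35% of all genes) and 1 lower (1.25% against 19.7%). COX7B, a small subunit of complex IV, had 183 CPM in the RNC library and 44.8 and 42.98 CPM in the NC and knockdown cytosol, ratios of 2.03 (95% interval 1.85 to 2.21) and 2.09 (1.92 to 2.27). NDUFB1 of complex I had 192 CPM in the RNC library and 44.5 and 50.9 CPM in the NC and knockdown cytosol, ratios of 2.11 (95% interval 1.94 to 2.30) and 1.92 (1.76 to 2.08). NDUFB3 (43.00 against 10.7 and 8.50 CPM), COX6A1 (1186 against 364 and 339 CPM) and COX8A (2440.5 against 878 and 927 CPM) were higher too, so the leading members are small accessory subunits. Of the larger subunits, cytochrome c1, CYC1, had ratios of 0.01 and -0.03, and NDUFS1, the largest subunit of complex I, -0.79 and -0.88. ATP5L2, the 1 lower member, had 2 reads in the RNC library and 119 and 109 in the cytosol, and belongs to the genes with next to no reads in the RNC and mRNA libraries described below. The mitochondrial ribosomal proteins had a smaller offset, 0.42, with 0 of 75 higher and 6 lower, 8% against 19.7% of all genes. MRPS24 had ratios of 0.87 and 0.85 and MRPL3 of -1.79 and -1.68, the 2 ends of that group among the members named.

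**Figure D3:**
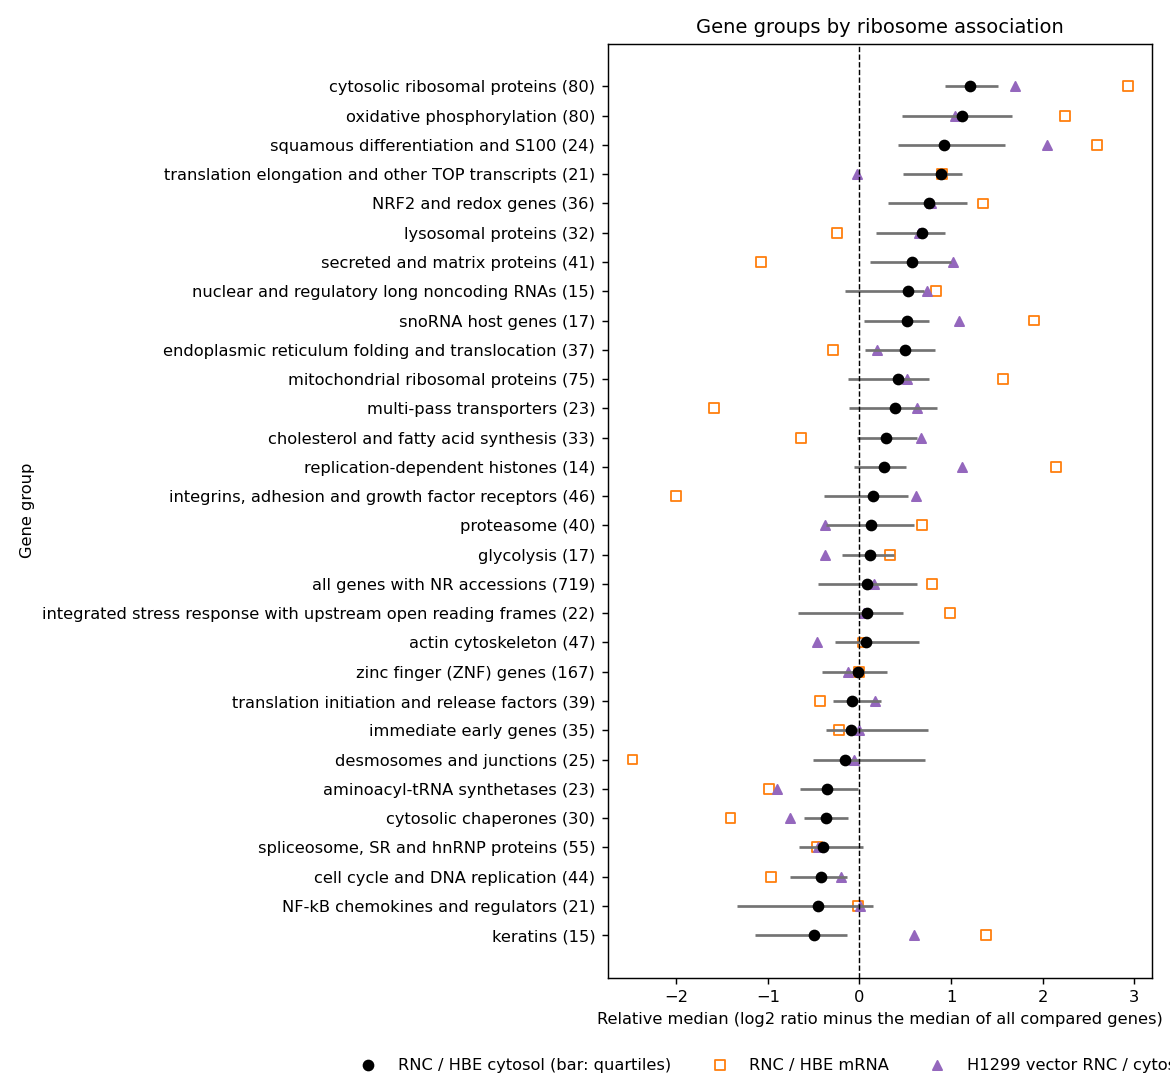
Relative median of each gene group (its median log2 ratio minus that of all compared genes) for the RNC library over HBE cytosol, as filled circles with bars from the lower to the upper quartile, with the number of genes in parentheses. Open squares give the same groups for the RNC library over the 2 HBE mRNA libraries and triangles for H1299 vector RNC over H1299 vector cytosol. Ribosomal proteins lead at 1.21 and keratins stand last at -0.50.

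Secretory messages lay above the middle over cytosol, but below it over mRNA. Relative medians were 0.69 for lysosomal proteins (1 of 32 higher, 3 lower), 0.58 for secreted and matrix proteins (5 of 41 higher, 4 lower), 0.50 for ER folding and translocation (1 of 37 higher, 1 lower) and 0.39 for multi-pass transporters (0 of 23 higher, 2 lower). The shares higher were 3.125%, 12.2%, 2.70% and 0%, against 2.35% of all genes. The shares lower were 9.375%, 9.76%, 2.70% and 8.70%, against 19.7% of all genes. Over the HBE mRNA libraries the same 4 groups stood at -0.25, -1.07, -0.29 and -1.58. The receptors and integrins, which are also made at the ER, were at 0.15. Of these, 1 of 46 was higher (2.17% against 2.35% of all genes) and 7 were lower (15.2% against 19.7%). TGFBI, an extracellular adhesion protein, had 277 CPM in the RNC library and 113 and 121 CPM in the NC and knockdown cytosol, ratios of 1.30 (95% interval 1.18 to 1.41) and 1.19 (1.09 to 1.30). IGFBP3, a carrier of insulin-like growth factors, had 16.05 against 2.20 and 2.43 CPM, and the collagen COL5A1 15.9 against 3.21 and 5.01 CPM. These 3 stood still higher in the RNC library labelled HBE NC (664, 53.1 and 87.1 CPM), which also holds more VIM. Whether material shared between those libraries bears on the ratios was not tested. Lower members included LAMB3, a chain of the basement membrane protein laminin-332 (65.2 against 142 and 157 CPM, ratios -1.12 and -1.27), and CYR61, a matricellular protein now called CCN1 (9.09 against 25.2 and 25.4 CPM). Among the lysosomal proteins the protease CTSD had 2154 CPM in the RNC library and 1139 and 1281 CPM in the NC and knockdown cytosol, ratios of 0.92 and 0.75, and the alpha-glucosidase GAA was lower (-1.41 and -1.53). SEC11A, the catalytic subunit of signal peptidase, was higher (1.43 and 1.04), whereas the chaperone CALR (-0.74 and -0.74) lay below the median. Of the receptors, the laminin receptor subunit ITGA3 was lower at 397 against 811 and 903 CPM (ratios -1.03 and -1.19), ITGB1 lay at 0.59 and 0.57, and NOTCH3 at 0.82 and 0.53. FGFR1, the 1 higher receptor, had 15.4 against 2.71 and 3.04 CPM and 105 CPM in the RNC library labelled HBE NC.

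A hydrophobic stretch at the start of the protein can be read from the codons, since every codon with T at its second position encodes phenylalanine, leucine, isoleucine, methionine or valine. Among 9209 compared genes with an annotated coding sequence that begins with ATG, 845 had at least 7 such codons in some window of 10 within codons 2 to 31. Their median log2 ratio was -0.25, against -0.53 for genes with 5 or 6, -0.58 for those with 3 or 4 and -0.63 for those with at most 2. They were higher in 4.26% and lower in 13.3%, against 2.35% and 19.7% of all genes. The offset was present in shorter transcripts (-0.20 against -0.41) and in longer ones (-0.32 against -0.68). In H1299 vector RNC over H1299 vector cytosol, which shares no library with this comparison, the medians for the same classes were -0.95 against -1.40, -1.53 and -1.49. Against the HBE mRNA libraries the class did not stand out (-1.36 against -1.33, -1.36 and -1.37). Nor did it in the RNC library labelled HBE NC over the same HBE cytosol (-0.13 against -0.05, -0.13 and -0.17).

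Epithelial messages split. The keratins, the intermediate filaments of epithelia, were the lowest group with a relative median of -0.50, 0 of 15 higher and 6 lower (40% against 19.7% of all genes). KRT5 and KRT17, by which the RNC library was picked, are among the 15, and KRT5 is among the 6 lower ones. The group values are therefore a description and were not computed without them. KRT14, the partner of KRT5 in basal cells, had 3.82 CPM in the RNC library and 81.8 and 77.8 CPM in the NC and knockdown cytosol, ratios of -4.42 (95% interval -4.70 to -4.15) and -4.34 (-4.62 to -4.08). In NC and knockdown mRNA KRT14 had 13.9 and 13.2 CPM, and KRT6A 38.5 and 48.9 CPM, also below the cytosol levels. KRT6B (8.46 against 112 and 97.5 CPM) and KRT6A (12.7 against 92.5 and 73.5 CPM), keratins of activated epithelium, were lower, with ratios of -3.73 and -3.52 for KRT6B and -2.86 and -2.53 for KRT6A, and so was KRT5 itself (-1.94 and -1.94). The abundant KRT17 (-0.58 and -0.66) and KRT81 (7104 against 8320.1 and 7605 CPM, ratios -0.23 and -0.10) were not called, and KRT15 (0.92 and 0.66) was the member farthest above the median. Keratins are a family of near-identical genes in places (KRT6A with KRT6B, KRT81 with KRT86, KRT14 with KRT16 and KRT17), so the split of reads within such pairs is uncertain. By contrast, squamous differentiation genes with the S100 proteins had a relative median of 0.92, with 6 of 24 higher (25% against 2.35% of all genes) and 2 lower (8.33% against 19.7%). In the RNC library labelled HBE NC over the same cytosol their relative median had the opposite sign, -0.55. CSTA, a cysteine protease inhibitor of the cornified envelope, had 124 CPM in the RNC library and 21.8 and 19.1 CPM in the NC and knockdown cytosol, ratios of 2.50 (95% interval 2.26 to 2.77) and 2.69 (2.44 to 2.97). S100A9, a subunit of calprotectin, had 641 CPM in the RNC library and 133 and 116 CPM in the NC and knockdown cytosol, and its partner S100A8 68.6 against 19.6 and 11.8 CPM. S100A6 was higher at 5627 against 1944 and 2070.5 CPM (ratios 1.53 and 1.44), while the abundant S100A2 (0.05 and 0.23) and the 14-3-3 protein SFN (-0.79 and -0.84) were not. Junction genes lay at -0.16, with 1 of 25 higher (4% against 2.35% of all genes) and 6 lower (24% against 19.7%). CTNNB1, beta-catenin, was lower at 38.9 against 130.4 and 125 CPM (ratios -1.74 and -1.69) and the tight junction scaffold TJP3 higher at 57.5 against 20.1 and 28.4 CPM. The actin cytoskeleton, the system FLII acts on, was at 0.07 with 2 of 47 higher (4.26%) and 7 lower (14.9%), near the 2.35% and 19.7% of all genes. The actin-severing GSN was higher at 428 against 203 and 185 CPM (ratios 1.08 and 1.21), the crosslinker ACTN1 (-1.53 and -1.30) and the formin DIAPH1 (-1.65 and -1.76) were lower, and ACTB was at -0.86 and -0.57.

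**Figure D4:**
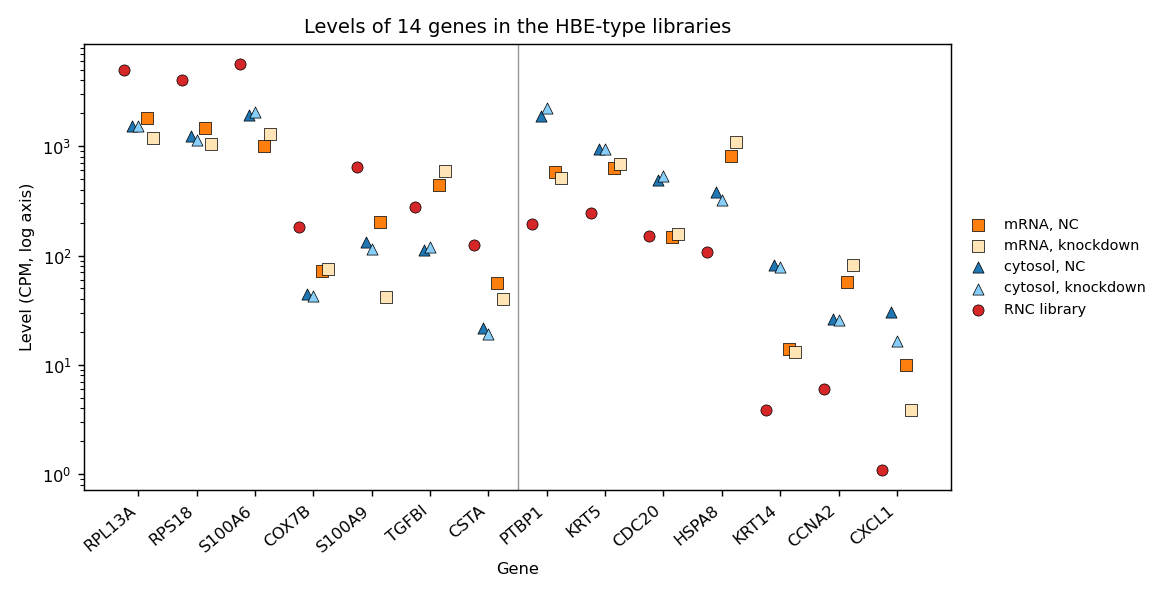
Level of 14 named genes in CPM on a log axis in the RNC library (filled circle), NC and knockdown cytosol (triangles) and NC and knockdown mRNA (squares) of HBE. Genes on the left have the RNC level above the cytosol pair (for RPL13A 4952 against 1534 and 1539.5 CPM) and genes on the right below it (for KRT14 3.82 against 81.8 and 77.8 CPM).

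NF-kB targets lay below the middle and immediate early genes near it. The NF-kB targets and regulators had a relative median of -0.45, 0 of 21 higher and 9 lower (42.9% against 19.7%). The lower ones were led by neutrophil-attracting chemokines, whose messages carry AU-rich elements and turn over fast. CXCL1 had 1.09 CPM in the RNC library and 30.1 and 16.6 CPM in the NC and knockdown cytosol, ratios of -4.77 (95% interval -5.31 to -4.29) and -3.91 (-4.47 to -3.40). CXCL3 (1.74 against 19.1 and 12.3 CPM), IL8 (0.727 against 9.13 and 5.47 CPM) and CXCL2 (3.66 against 23.3 and 20.8 CPM) were lower as well, each below both cytosol libraries. CXCL1 also differed between the cytosol libraries, and it stood at 10.03 and 3.86 CPM in NC and knockdown mRNA. Immediate early genes were near the middle (-0.10), with 1 of 35 higher (2.86% against 2.35% of all genes) and 6 lower (17.1% against 19.7%). MYC was lower at 65.6 against 239 and 186 CPM (ratios -1.87 and -1.50), as were FOSL1 (-1.97 and -1.95) and the ERK phosphatase DUSP6 (-3.08 and -2.67), whereas ID1, an inhibitor of basic helix-loop-helix factors, was higher at 1948 against 873 and 953 CPM. JUNB lay at 0.34 and 0.36. Stress response genes with upstream open reading frames, which hold ribosomes away from the main frame in unstressed cells, had a relative median of 0.08 with 1 of 22 higher (4.55% against 2.35% of all genes) and 7 lower (31.8% against 19.7%). Among them PPP1R15A (31.8 against 88.1 and 91.3 CPM) and ATF5 (31.8 against 74.9 and 85.8 CPM) were lower, ATF4 was at -0.47 and -0.40, and DDIT4, an inhibitor of mTOR signalling, was higher at 1731 against 632 and 586 CPM (ratios 1.45 and 1.56).

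Redox genes of the NRF2 programme stood at 0.76, with 4 of 36 higher (11.1% against 2.35% of all genes) and 2 lower (5.56% against 19.7%). The peroxidases PRDX5 (3489 against 1558 and 1678 CPM, ratios 1.16 and 1.06) and GPX2 (121 against 32.3 and 49.96 CPM) were higher, and GPX1, an abundant selenoprotein, lay at 0.68 and 0.58. HMOX1 (11.3 against 3.21 and 2.73 CPM) and AKR1C3 (68.2 against 33.1 and 29.2 CPM) were higher here and higher still in the RNC library labelled HBE NC (62.7 and 439 CPM). In H1299 with the empty vector AKR1C3 had 33.2 CPM in RNC and 0 CPM in cytosol, and the reason was not tested. The metallothionein MT2A went the other way, with 8773 and 8380.1 CPM in cytosol and 2803 CPM in the RNC library, but it had 1031 and 1352 CPM in the mRNA libraries and is a near copy of other metallothionein genes. Catalase, CAT, was lower too (-1.41 and -1.30).

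Messages for other cytosolic and nuclear machines were below the middle in this library. In the RNC library labelled HBE NC over the same cytosol, the 4 groups described next were above it, at 0.40 for cell cycle genes, 0.23 for splicing proteins, 0.59 for chaperones and 0.69 for aminoacyl-tRNA synthetases. Cell cycle and replication genes had a relative median of -0.42, with 0 of 44 higher and 20 lower (45.5% against 19.7%). CCNA2, cyclin A2, had 5.95 CPM in the RNC library and 26.4 and 25.5 CPM in the NC and knockdown cytosol, ratios of -2.15 (95% interval -2.45 to -1.85) and -2.10 (-2.39 to -1.81). TPX2 of the mitotic spindle (20.02 against 72.5 and 86.1 CPM), CDC20, the activator of the anaphase-promoting complex (152 against 486 and 539.8 CPM), and MCM7 of the replicative helicase (155 against 549.8 and 509 CPM) were lower as well, and CDK4 lay at -0.64 and -0.67. Splicing proteins were at -0.40 with 19 of 55 lower (34.5% against 19.7% of all genes) and 0 higher (against 2.35%). PTBP1, a repressor of exon inclusion, had 193 CPM in the RNC library and 1874 and 2231 CPM in the NC and knockdown cytosol, ratios of -3.28 (95% interval -3.32 to -3.23) and -3.53 (-3.57 to -3.49), and 583 and 517 CPM in the mRNA libraries. In the nuclear libraries it had 2407 and 2472 CPM. Small snRNP core proteins such as SNRPD2 (0.72 and 0.85) lay above the median, while SF3B2 (-1.39 and -1.33) and SNRNP70 (-1.32 and -1.28) were lower. Cytosolic chaperones stood at -0.36, with 1 of 30 higher (3.33% against 2.35% of all genes) and 10 lower (33.3% against 19.7%). HSPA8 at 107 against 384 and 324 CPM and HSP90AB1 at 322 against 717 and 668 CPM were both lower. Aminoacyl-tRNA synthetases stood at -0.35, with 1 of 23 higher (4.35% against 2.35% of all genes) and 9 lower (39.1% against 19.7%). TARS (-1.77 and -2.0) and VARS (-1.51 and -1.49) were lower and QARS was the exception at 376 against 179 and 173 CPM (ratios 1.07 and 1.12).

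Proteasome, glycolysis and lipid synthesis genes sat close to the middle, with relative medians of 0.12, 0.12 and 0.29. The immunoproteasome subunit PSMB9 was the 1 higher proteasome gene (97.7 against 28.2 and 43.1 CPM), and 9 of the 40 were lower, 22.5% against 19.7% of all genes. Among glycolytic enzymes GAPDH had 15037 CPM in the RNC library and 15563 and 15374 CPM in the NC and knockdown cytosol, ratios of -0.05 and -0.03, while ENO1 (-1.13 and -1.12) and LDHA (-1.17 and -1.07) were lower. The 167 zinc finger (ZNF) genes had a relative median of -0.01, with 0 higher and 32 lower (19.2%), the share of all genes. ZNF581 (0.87 and 0.98) and ZNF665 (-3.98 and -4.67) were near the ends of their range. Replication-dependent histones, whose messages mostly lack a polyA tail, passed the limit in 14 of 73 cases. They had a relative median of 0.27 with 1 lower (7.14% against 19.7% of all genes) and none higher.

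The median of noncoding genes lay near that of all genes. The 719 compared genes with noncoding accessions had a relative median of 0.08, with 23 higher (3.20%) and 155 lower (21.6%). The snoRNA host genes had 0.52, with 1 of 17 higher (5.88% against 2.35% of all genes) and 1 lower (5.88% against 19.7%). GAS5, a host gene known to be a TOP transcript that associates with ribosomes, was higher at 224 against 90.96 and 78.8 CPM (ratios 1.30 and 1.51). Long noncoding RNAs of known nuclear or regulatory roles had 0.53, with 0 of 15 higher and 2 lower (13.3% against 19.7% of all genes). NEAT1, which builds nuclear paraspeckles, had 31.4 CPM in the RNC library and 18.8 and 16.9 CPM in the NC and knockdown cytosol (ratios 0.74 and 0.89) and 133 and 144 CPM in the nuclear libraries. H19 lay at 0.04 and 0.34, and MIR22HG was lower (2.26 against 6.59 and 6.99 CPM). What share of the pellet was not ribosomal cannot be read from these files.

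The 12 higher genes whose intervals lay farthest from no difference included RNA5-8S5, SPTBN1, VIM, ALDH3A1, AHNAK2, CSTA, MUC4, S100A9, IFI6, HCAR2 and IGFBP3. RNA5-8S5 encodes the 5.8S rRNA of the large subunit and had 629 CPM in the RNC library and 23.8 and 16.4 CPM in the NC and knockdown cytosol, ratios of 4.72 (95% interval 4.48 to 4.97) and 5.26 (4.99 to 5.55). ALDH3A1, an aldehyde dehydrogenase of airway epithelium, had 182 CPM in the RNC library and 17.6 and 30.1 CPM in the NC and knockdown cytosol, ratios of 3.36 (95% interval 3.09 to 3.66) and 2.59 (2.39 to 2.81). In H1299 with the empty vector ALDH3A1 had 53.8 CPM in RNC and 0.216 CPM in cytosol, and AHNAK2 51.3 and 57.0 CPM. Why ALDH3A1 was counted in that RNC library and barely in its cytosol was not tested. SPTBN1, a spectrin, had 36.6 against 3.04 and 2.89 CPM, and the membrane mucin MUC4 31.2 against 4.40 and 4.86 CPM. Some of these genes were higher still in mRNA: SPTBN1, AHNAK2, MUC4 and HCAR2 had 303 and 444, 330.0 and 262, 219.9 and 249 and 222 and 75.6 CPM in NC and knockdown mRNA, all above the RNC level. The RNC library labelled HBE NC held 293 CPM of SPTBN1, 250.4 of AHNAK2, 589 of ALDH3A1 and 2205 of RNA5-8S5. In the whole set, 26 of the 233 higher genes (11.2%) were at least 4-fold higher still in that library, as were 10.7% of all compared genes. Set against the HBE mRNA libraries as well, 125 of the 233 were also 2-fold or more above both, and 20 were 2-fold or more below both. Of all 9915 compared genes, 936 were called higher and 5158 lower over both mRNA libraries.

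The lower genes were led by MIR4461, RPL19P12, MTRNR2L4, MT1JP, ANXA2P1, MT1M, PPIAP30, PRPH, ATP5L2, ATP1A4, NACAP1 and CASKIN1. MIR4461 had 0 reads in the RNC library and 180 and 268 reads in the cytosol libraries, at least 391-fold and 522-fold lower with 3 reads as the floor. RPL19P12, a pseudogene of a ribosomal protein gene, had 1 read against 271 and 250, ratios of -10.20 (95% interval -16.09 to -8.29) and -9.93 (-15.82 to -8.02). PRPH, the neuronal intermediate filament peripherin, had 0.182 CPM in the RNC library and 50.2 and 44.5 CPM in the NC and knockdown cytosol, and in H1299 with the empty vector 5.77 CPM in RNC and 4.32 CPM in cytosol. The other leading lower genes, but for MT1JP at 0 CPM in both, were below cytosol in that H1299 pair too. RPL19P12 had 0 CPM in RNC and 32.3 CPM in cytosol there, and CASKIN1 0.346 and 62.0 CPM. In all, 60 genes were at least 32-fold lower. Of these 18 had no read in the RNC library, and 13 were annotated pseudogenes (141 of all 9915 compared genes). Further, 58 were under 2 CPM in both HBE mRNA libraries (204 of all 9915) and all 60 in the RNC library labelled HBE NC, while 52 had 2 CPM or more in both HBE nuclear libraries. So most of these genes were counted in the HBE cytosol and nuclear libraries and barely in the HBE mRNA libraries and these 2 RNC libraries. Some of the leading ones (MT1M and MT1JP, ANXA2P1, PPIAP30, NACAP1, MTRNR2L4) are near copies of other genes (metallothioneins, annexin A2, cyclophilin A, NACA, mitochondrial rRNA). How many of the 60 are near copies was not counted. Whether reads were assigned alike in both kinds of library was not tested. Among all 1958 lower genes, 1500 were 2-fold or more below both HBE mRNA libraries and 27 were 2-fold or more above both. Low values over mRNA were common among all genes, with a median log2 ratio of -1.31. By the rule for calls, 1465 of the 1958 were lower over both mRNA libraries, against 5158 of all 9915 compared genes. Of the 9915 genes, 204 had under 2 CPM in both mRNA libraries. Of those 204, 131 were lower and 4 higher, against 1958 and 233 of all 9915.

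Shorter transcripts had the higher ratios in the RNC library. Over quintiles of transcript length from the shortest, the median log2 ratio was -0.11, -0.49, -0.66, -0.66 and -0.65, and 7.06% of the shortest quintile was higher. Over quintiles of coding length it fell from -0.14 to -0.69. The higher genes had a median transcript of 1458 bases and the lower ones of 3172, against 2860 for all compared genes. By GC content the medians were -0.77 in the poorest quintile and -0.35 in the richest one. Across genes, which are not independent, Spearman's rho was -0.23 with length and 0.21 with GC (9534 genes with a value), and 0.47 with the ratio of H1299 vector RNC to H1299 vector cytosol over 9120 genes, libraries that this comparison does not use but that share preparation and annotation with it. Set against the median of their own quintile of length, relative medians were 0.86 for ribosomal proteins, 0.73 for oxidative phosphorylation, 0.54 for squamous and S100 genes, 0.48 for secreted proteins, -0.37 for cell cycle genes and -0.55 for keratins. In the RNC library labelled HBE NC over the same cytosol, the longest and the GC-poorest transcripts had the higher medians. Its medians were -0.23, -0.49, -0.37, 0.05 and 0.56 by length quintile. By GC content they were 0.60 in the poorest quintile and -0.79 in the richest one.

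**Figure D5:**
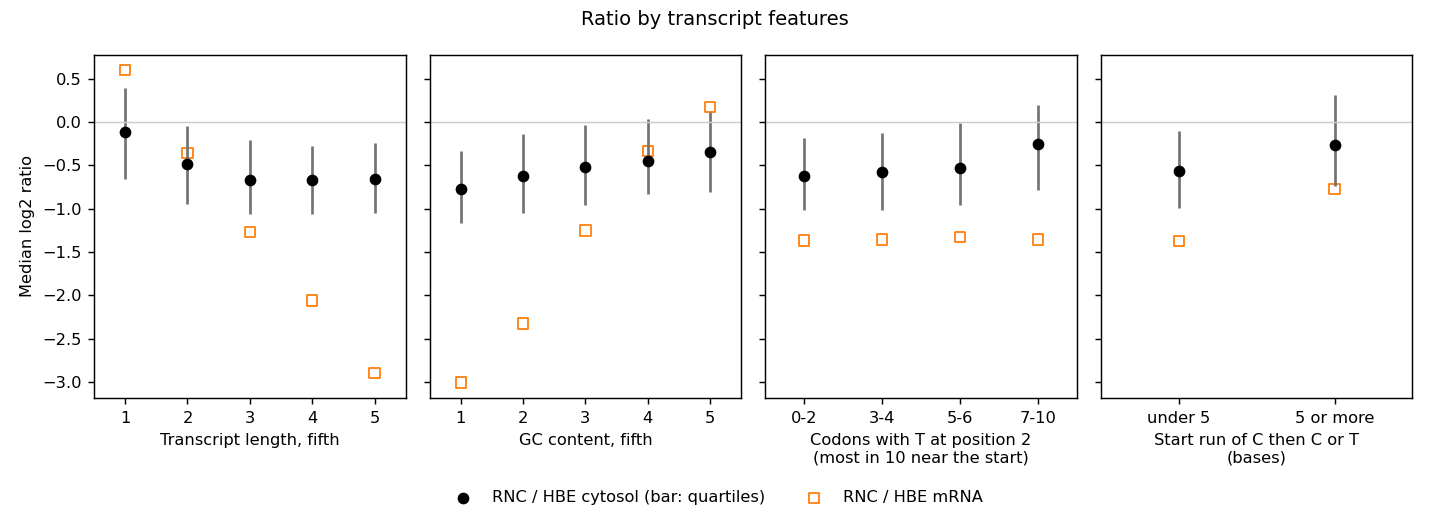
Median log2 ratio of the RNC library to HBE cytosol (filled circles, bars from the lower to the upper quartile) by quintile of transcript length, by quintile of GC content, by the largest number of codons with T at the second position in a window of 10 near the start, and by the presence of a start run. Open squares show the same genes for the RNC library over HBE mRNA, which fall from 0.60 to -2.90 across the length quintiles.

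Which groups stood out depended on the reference, cytosol or total message. Over the NC and knockdown mRNA libraries of HBE the relative median of ribosomal proteins was 2.93, that of oxidative phosphorylation 2.24 and that of squamous and S100 genes 2.59. Set against the median of their own quintile of length, these values over mRNA were 1.14, 0.75 and 0.87, much nearer to the 0.86, 0.73 and 0.54 found over cytosol in the same way. Secreted and matrix proteins changed side, from 0.58 over cytosol to -1.07 over mRNA, and so did ER folding (-0.29), lysosomal proteins (-0.25) and transporters (-1.58). Within quintiles of length these 4 stayed below 0, at -0.34, -0.83, -0.52 and -0.75. Junction genes were at -2.48 and receptors at -2.0, and within quintiles of length at -0.91 and -0.54. Keratins changed side the other way, to 1.38, but lay at 0.09 within quintiles of length. The ratio to mRNA followed length and GC content more closely (Spearman's rho -0.62 and 0.62 across genes), and the mRNA libraries themselves rose over cytosol from -0.64 in the shortest quintile to 2.19 in the longest. The part of length in these differences was not tested beyond the medians within length quintiles. In the H1299 vector pair, the relative medians were 1.70 for ribosomal proteins, 1.04 for oxidative phosphorylation, 1.02 for secreted proteins, -0.03 for elongation and other TOP messages, -0.76 for chaperones and -0.90 for aminoacyl-tRNA synthetases. In the RNC library labelled HBE NC over the same cytosol pair the first 4 were 1.05, 0.63, 0.89 and 0.58. That library shares its denominators with the comparison here and its markers are mixed (174 CPM of the 6 HBE and 452 CPM of the 5 H1299 markers plotted), so its values are set beside and not counted as a second measurement.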

How the data were processed

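PolyA RNA of 2 cell lines was sequenced as 16 libraries, 1 per condition and kind of RNA, and 3 of them were compared here. Each deposited file gives, per the file headers, a read count and an RPKM value for each of 23709 RefSeq genes. The read counts are whole numbers that the authors deposited without normalization. The deposited RPKM values equal each count divided by the gene's length and by the sum of the counts, to within 5.45e-05%, and served as an alternative. Genome builds GRCh37 and hg19 are named per the submitters' processing notes. The sources used here name no aligner, counter, strand setting or handling of reads with several matches.

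CPM was each count over the total of its library (38514467 RNC reads, 5914489 and 6585225 cytosol reads, where 1 read is worth far less in the RNC library). Ratios had 0.5 reads added. The limit was 2 CPM in both cytosol libraries. Intervals are exact Clopper-Pearson 95% intervals of the split of reads. Calls need 2-fold against each cytosol library. The floor for 0 reads was 3 counts. Trimmed means of M values came from edgeR 4.0.16 and median ratios from DESeq2 1.42.0, for scaling only, in R 4.3.3. Other steps used Python 3.11.15 with pandas 2.3.3 and scipy 1.17.1. GC content and coding sequence were read from GENCODE release 29 transcripts (GRCh38) matched by RefSeq identifier. Start sequences came from RefSeq (GRCh38.p14) by the gene symbol of that identifier.

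Named genes are FLII and the line markers, the 12 genes per direction whose nearer interval bound lies farthest from no difference, and per group up to 4 members per direction by the same bound and the 3 most abundant. The members, the gene lists and these rules were chosen with earlier results of these data known. Symbols turned into dates (15 compared genes) were not named, and no protein sequence was used here. A gene that the rule for named genes selects is not reported here.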

Additional observations from a re-analysis of the deposited data

Results flagged for a closer look

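The keratins lay on opposite sides of the other genes in the 2 lines. Their relative median was -0.50 in the RNC library over HBE cytosol (15 genes) and 0.60 in H1299 vector RNC over H1299 vector cytosol (7 genes with 2 CPM or more in that cytosol). The 15 include KRT5 and KRT17, by which the RNC library was picked. KRT81 had 162 CPM in H1299 vector RNC and 6.26 CPM in its cytosol, and KRT17, at 3997 CPM in the RNC library here, had 0.478 and 4.64 CPM there. Each line has 1 library on either side, and the difference between the lines was not tested.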

How the results depend on the processing

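Groups whose median lay off that of all genes beyond its order-statistic interval kept their direction under every filter and pseudocount tried, with RPKM, and with either cytosol library alone. Rescaling a library leaves a relative median unchanged by construction, so it is no check of these directions. The counts of higher and lower genes moved. By trimmed means of M values 922 genes were higher and 461 lower, by median ratios 826 and 510, and with totals that leave out ribosomal protein genes 351 were higher. RPKM with 1 added gave 867 lower genes and a ribosomal protein median of 1.03, a limit of 10 CPM gave 152 higher and 1127 lower, and 1 read in each library as the only limit gave 429 higher. Over the mRNA libraries 936 were higher and 5158 lower, the ribosomal protein median was 2.93, and, among those groups, the medians of secreted proteins (-1.07), ER folding (-0.29), lysosomal proteins (-0.25), lipid synthesis (-0.64) and keratins (1.38) changed side. Named genes that changed sign over mRNA and were called over at least 1 of the 2 references were AHNAK2 (-3.19), ATF5 (0.53), COL5A1 (-1.22), CYC1 (1.62), EEF1A1 (-1.19), FOSL1 (0.24), HCAR2 (-2.03), IGFBP3 (-0.70), ITGB1 (-3.82), KRT81 (1.44), KRT86 (1.42), MT1JP (0.52), MT2A (1.25), MUC4 (-2.91), NACA (-1.17), NACAP1 (0.88), NEAT1 (-4.58), NOTCH3 (-3.45), PRPH (0.033), RPLP0 (1.54), RPS7 (-0.13), SEC11A (-0.35), SPTBN1 (-3.33), TGFBI (-0.89), TJP3 (-0.45). ACTB, ATF4, CDK4, CTSD, GAPDH, H19, JUNB, KRT16, KRT17, SFN and TRIM29, called over neither, changed sign too. With the RNC library labelled HBE NC as numerator 1456 genes were higher, the medians of ribosomal, secreted and ZNF genes were 1.05, 0.89 and -0.41, and, among the same groups, those of aminoacyl-tRNA synthetases (0.69), chaperones (0.59), squamous and S100 genes (-0.55), cell cycle (0.40), splicing (0.23) and noncoding genes (-0.17) changed side, as did the genes, called with at least 1 of the 2 numerators, ACTN1 (0.38), CAT (0.27), CCNA2 (0.023), EEF2 (-1.20), EIF4E (0.011), GSN (-0.51), H19 (-2.38), HSPA8 (0.58), JUNB (-1.68), LDHA (0.21), MUC4 (-0.17), PABPC1 (0.31), RPLP0 (1.23), TARS (0.40), TJP3 (-1.27), TRIM29 (-1.39). CTSD, CYC1, FLII, KRT15, NDUFS1, NPM1 and RPS2, called with neither, changed sign too. The cause was not tested.

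Alternatives chosen after seeing the data were the mRNA filter joined to the cytosol filter, calls against cytosol and mRNA together (125 higher; MUC4 at -0.087 on the mean of all 4 ratios), leaving out genes 4-fold higher in the RNC library labelled HBE NC, and medians within quintiles of length (ribosomal proteins 0.86) or GC. No paired analysis was possible because each group has 1 library. The cytosol libraries limit the depth: 3 reads are worth 0.507 and 0.456 CPM there and 0.0779 CPM in the RNC library.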
